A study of Mus musculus with 68 samples.

Results

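The comparison described here asks how the bulk prostate transcriptome of mice without a tumour-driving transgene differs when osteopontin is missing. It rests on 18 of the 68 arrays of the series, 8 from mice of genotype OPN-/- TRAMP-/- (called OPN-null) and 10 from TRAMP-/- mice with intact OPN (called wild type). TRAMP is a transgene that drives the SV40 T antigens in prostate epithelium from a rat probasin promoter, and none of the 18 mice carried it. The members were chosen by the genotype, animal code and age in the labels. Early wild-type mice (n = 4; codes B8, B10, B11 and B13) were 16 weeks old, and early OPN-null mice were 16 weeks (O1) or 17 weeks old (O8 to O11; n = 5 in all). Late mice were all 24 weeks old, with 6 wild-type animals (B1 to B6) and 3 OPN-null animals (O2, O7 and O14). Total RNA was hybridised to Clariom S arrays, which read each transcript with 1 probe set, and every array has an animal code of its own. The labels name the tissue of all 18 as prostate tumors although these mice lacked the transgene, and they give no strain, litter or dissected lobe, and no description of the OPN-null allele. Array O12, which has an OPN-series code but a SPARC-/- TRAMP-/- genotype label, was left out. Other groups are set beside these 18. TRAMP+/- mice with intact OPN were 16 weeks (n = 7) or 24 to 25 weeks old (n = 7). OPN-/- TRAMP+/- mice were 16 to 17 weeks (n = 6) or 24 to 27 weeks old (n = 3). SPARC-/- TRAMP-/- mice were 16 to 18 weeks (n = 7) or 25 to 27 weeks old (n = 4). SPARC-/- TRAMP+/- mice, 18 to 19 weeks (n = 6) or 24 to 29 weeks old (n = 9), entered the TRAMP fit.

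Osteopontin, the product of Spp1, is a secreted, heavily phosphorylated glycoprotein of the SIBLING family of bone and tooth matrix proteins. It works outside the cell as a ligand: an RGD motif binds integrins of the alpha-v and alpha-5 classes, a neighbouring stretch exposed by thrombin binds other integrins, and CD44 has been described as a further receptor. It is abundant in mineralising tissue and in activated macrophages, and in many tumours its level follows invasion and immune infiltration. Loss of the gene in unchallenged mice is known to be compatible with normal development and fertility.

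No named probe set stood for Spp1, so the OPN genotype could not be checked on these arrays. Among prostate secretory genes Pbsn (probasin, an androgen-driven secretory protein) lay between 8.91 and 12.19 on the log2 scale over the 18 arrays, and Tgm4 (the prostate transglutaminase of the copulatory plug) between 8.20 and 13.18, beside a 95th percentile of 9.23 for negative controls. Msmb (a secretory protein of the prostate) was lower and ran from 5.94 to 9.91. Technical measures were compared between the genotypes as well. Array quality was taken as the chance that a positive control probe set outshone a negative one (AUC). It was 0.74 ± 0.015 (SD, n = 5) in early and 0.705 ± 0.036 (n = 3) in late OPN-null mice, against 0.75 ± 0.0092 (n = 4) and 0.735 ± 0.021 (n = 6) in the wild type. The difference averaged over both ages was -0.0203 (2-sided exact permutation within age, p = 0.059, adjusted over 3 control measures 0.0884), and the lowest values were 0.678 in O14, 0.691 in O2 and 0.698 in wild-type B6. The poly-A spike-in controls, added to the RNA before labelling, averaged 9.997 to 12.07 in early and 10.74 to 12.09 in late OPN-null mice and 8.20 to 10.35 over the 10 wild-type mice. That is 1.60 log2 units higher in OPN-null mice (exact permutation p = 0.000283, adjusted 0.00085). In SPARC-/- TRAMP-/- mice the spike-in controls averaged 10.67 (S8) to 12.52 (S1), so high levels were not particular to OPN-null arrays. The part of these measures in the gene differences below was not tested beyond the fits that carry array quality or the spike-in level as a covariate.

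**Figure D1:**
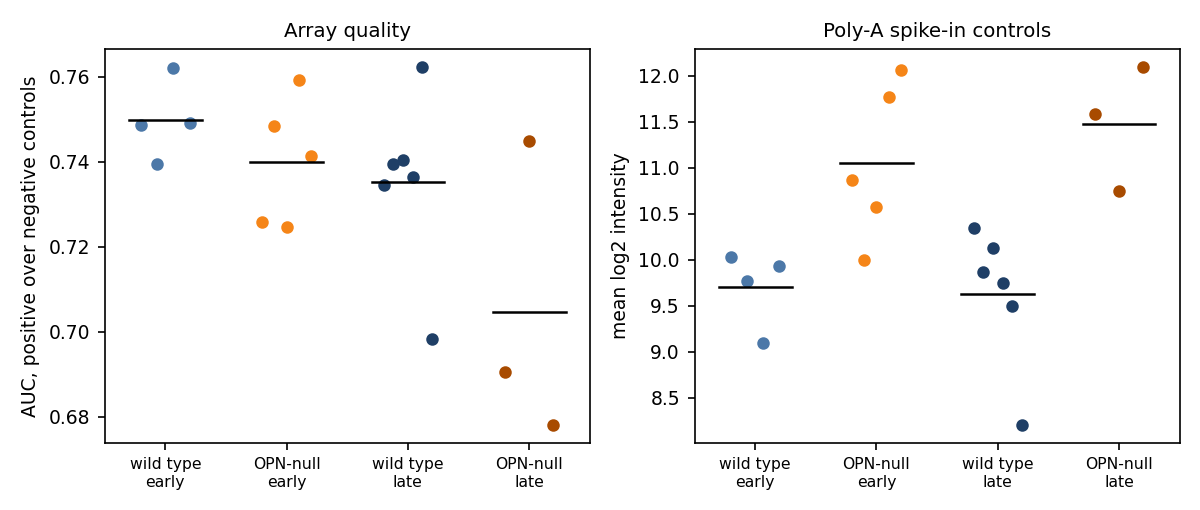
Array quality (left, AUC of positive over negative control probe sets) and mean log2 intensity of the poly-A spike-in controls (right) for the 18 arrays by genotype and age, with 1 point per array and a bar at each group's mean. OPN-null arrays O14 and O2 and wild-type array B6 sit lowest in quality at 0.678 to 0.698, and spike-in levels are higher in OPN-null arrays, whose lowest value of 9.997 lies below the wild-type maximum of 10.35.

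One gene fell in OPN-null prostate when the early and late differences were averaged, and none rose. Of 22206 probe sets tested with limma, 1 (0.0045%) had an adjusted p under 0.05, while 3484 (15.7%) had an unadjusted p under 0.05, of which 1998 (9%) were higher and 1486 (6.69%) lower in OPN-null mice. Taken separately, the early and late comparisons and the difference between them each called 0 probe sets in limma, with 843 (3.8%), 3185 (14.3%) and 683 (3.08%) at an unadjusted p under 0.05. Of all probe sets 1.9% were higher and 1.89% lower at that p in early mice, and 8.38% and 5.97% in late mice. Adjusted p-values lay close together behind the first, and 22 probe sets had an adjusted p under 0.06. The median standard error was 0.13 log2 units, and the 95% interval of the difference lay within 1 log2 unit either side of zero for 95.1% of probe sets and within 0.5 for 70.2%. The ranges of the 8 OPN-null and 10 wild-type arrays were apart for 5 probe sets (0.0225%), of which 3 (0.0135%) were lower in OPN-null mice and 2 (0.00901%) higher. The count called depended on single arrays: it was 1593 without O7, the late OPN-null array of best quality, 140 without wild-type B6, 27 without O10, 3 without O8 and 2 without O1 or O11, it was 1 without B1 or B5, and it was 0 without B2, B3, B4, B8, B10, B11, B13, O2, O9 or O14.

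The gene that fell was Armh3, on chromosome 19, an armadillo-like helical protein that acts at the Golgi with a phosphatidylinositol 4-kinase. Its log2 intensity was 5.73, 5.59, 5.95 and 5.82 in the early wild-type mice and 5.47, 5.05, 4.96, 5.11 and 5.22 in the early OPN-null mice. At the late age it ran from 5.56 through a median of 5.88 to 6.69 in the wild type and was 5.25, 5.22 and 4.80 in OPN-null mice. All 8 OPN-null values lay below all 10 wild-type values. The difference was -0.72 ± 0.12 (SE; limma adjusted p = 0.0436), with -0.61 at the early and -0.83 at the late age. These are dim signals, since the mean of Armh3 exceeded those of 52.5% of negative control probe sets. With array quality as a covariate the difference was -0.62 (limma adjusted p = 0.072), with the spike-in level as a covariate -0.71 (adjusted p = 0.726), and in the 18 arrays alone -0.71 (adjusted p = 0.143). In the TRAMP mice of the series, which share no animal with this comparison, the OPN-null difference of Armh3 was -0.26 over both ages (limma adjusted p = 0.342), with 0.04 at the early and -0.57 at the late age. SPARC-null mice without the transgene, set against the same wild-type animals, differed by -0.47 (limma adjusted p = 0.0737).

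**Figure D2:**
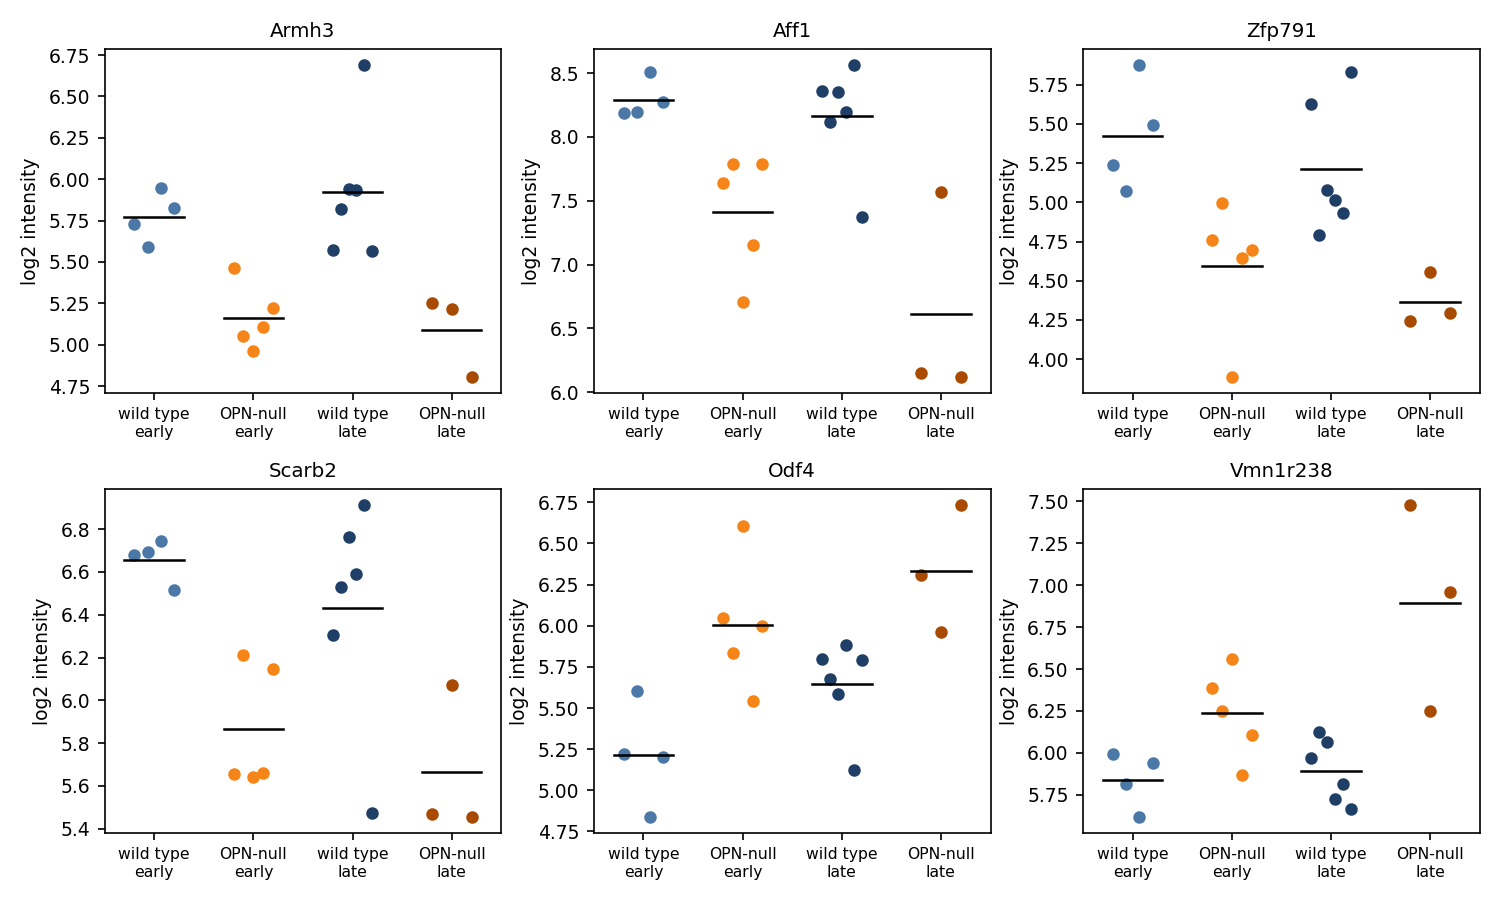
Log2 intensity of Armh3, Aff1, Zfp791 and Scarb2, which were lower in OPN-null arrays, and of Odf4 and Vmn1r238, which were higher, with 1 point per array, a bar at each group's mean and a separate scale in each panel. The Armh3 ranges are apart, the single wild-type array B6 overlaps the OPN-null range for Aff1 and Scarb2, and only Armh3 passed the adjusted threshold.

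Among the genes of lowest p with a negative difference, the largest was that of Aff1, a scaffold of the super elongation complex that releases paused RNA polymerase. Aff1 read 8.19, 8.20, 8.51 and 8.27 in early wild-type and 7.64, 7.78, 6.70, 7.15 and 7.79 in early OPN-null mice. Late wild-type values ran from 7.37 through a median of 8.28 to 8.57, against 6.15, 7.57 and 6.12 in late OPN-null mice. Only wild-type B6, at 7.37, overlapped the OPN-null range. The difference of -1.21 ± 0.23 (SE) missed the threshold (limma adjusted p = 0.0502), and with array quality as a covariate it was -0.83 ± 0.13 and Aff1 was the 1 probe set called (0.0045%; limma adjusted p = 0.0168). In TRAMP mice the OPN-null difference of Aff1 was -0.16 early (limma adjusted p = 0.922) and -1.68 late (0.000106; 21.5% of all probe sets were called there). Aff1 lies on chromosome 5 with 17 genes of the reference table between it and Spp1, the knocked-out gene. Over the 40 measured genes nearest to Spp1, 20 on either side, 6 had an unadjusted p under 0.05 (15.7% of all probe sets), and the median difference was -0.0047. With array quality as a covariate 8 of the 40 had an unadjusted p under 0.05 (11.9% of all probe sets).

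The other 8 genes of lowest p with a negative difference did not pass the threshold. Scarb2, the lysosomal membrane protein that delivers glucocerebrosidase, read 6.68, 6.69, 6.75 and 6.52 in early wild-type and 5.66, 6.21, 5.64, 5.66 and 6.15 in early OPN-null mice. Late values were 5.47, 6.07 and 5.45 in OPN-null mice, and the lowest of 6 late wild-type values was 5.48, again in B6. Its difference of -0.78 had a limma adjusted p of 0.0561. Zfp791, a zinc finger protein, differed by -0.84 (limma adjusted p = 0.0502), Reep3, which shapes the endoplasmic reticulum, by -0.69 (0.0502), and Zcchc4, a methyltransferase of the large ribosomal RNA, by -0.69 (0.0502). Cacnb1, a voltage-gated calcium channel subunit, differed by -0.78 (0.0502), Cish, a cytokine-induced inhibitor of STAT5 signalling, by -0.57 (0.0502), Gpcpd1, which cleaves glycerophosphocholine, by -0.99 (0.0502), and B9d1, of the ciliary transition zone, by -0.56 (0.0561). The late TRAMP differences of these 8 ran from -0.72 for Cish to 0.001 for B9d1. That comparison has 3 OPN-null mice, and 21.5% of all probe sets were called in it. Besides Armh3, the ranges were apart with lower OPN-null values for Tmem203 (difference -0.51, limma adjusted p = 0.137) and Fam120b (-0.40, 0.0905), which were named after their values were seen.

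At the other end, 4 of the 10 genes of lowest p were pheromone receptors of the vomeronasal organ. Vmn1r238 read 5.99, 5.81, 5.62 and 5.94 in early wild-type and 6.39, 6.25, 6.56, 5.87 and 6.11 in early OPN-null mice, and it was 7.48, 6.25 and 6.96 in late OPN-null mice against at most 6.12 in late wild-type mice. The highest late values belonged to O2 and O14, the OPN-null arrays of lowest quality. The differences were 0.70 for Vmn1r238, 0.68 for Vmn1r158 and 0.70 for Vmn1r149 (limma adjusted p = 0.0502 each), and 0.61 for Vmn1r79 (0.0726). Under other settings these 4 differences fell as low as 0.35, 0.32, 0.41 and 0.32 in that order. Their highest limma adjusted p-values were 0.785, 0.882, 0.785 and 0.897. Odf4, of the outer dense fibres of the sperm tail, differed by 0.74 (0.0502) and Oas1d, an oocyte relative of the oligoadenylate synthetases, by 0.48 (0.0502). Pfpl, a pore-forming protein-like gene, differed by 0.50 (0.0582), Hpd, of tyrosine breakdown, by 0.39 (0.0682), Reg3b, an antimicrobial lectin, by 0.49 (0.0691) and Olfr155, an odorant receptor, by 0.50 (0.0844). In early TRAMP mice the same 10 genes differed by -0.10 to 0.16.

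Turning from single genes to the osteopontin pathway, none of its receptor genes was called over both ages. Of 10 receptor genes measured, 0 had an adjusted or an unadjusted p under 0.05 (15.7% of all probe sets had the latter), and their median difference was 0.12, beside 0.006 over all probe sets. Itga5, the alpha-5 integrin chain, had the largest difference at 0.27 (95% interval -0.04 to 0.58), and Itga8, the alpha-8 chain, the lowest at -0.23 (-0.55 to 0.08). Itgav, the alpha-v chain of the classic osteopontin receptors, read 8.83, 9.0, 8.72 and 8.98 in early wild-type mice and 8.92, 9.17, 9.52, 9.27 and 8.96 in early OPN-null mice, with late values of 8.86 to 9.56 and of 9.39, 8.91 and 9.36. Those ranges overlapped, and the difference of Itgav was 0.23 ± 0.12 (SE). Cd44 was near the floor, between 3.37 and 4.44 on all 18 arrays, and exceeded 23.3% of negative controls. In early mice alone 1 of the 10 receptor genes was higher at an unadjusted p under 0.05 (1.9% of all probe sets). With array quality as a covariate over both ages 1 was higher at that p (6.39%). In early TRAMP mice 0 were higher (2.23%) and 3 lower (4.3%). Among 11 enzymes that cleave or crosslink osteopontin, Tgm1, a transglutaminase of stratified epithelia, differed by 0.36 (unadjusted p = 0.00315) and Plau, urokinase, by -0.80 (0.0317), and the list's median was -0.05. These were the 1 higher (9% of all probe sets) and 1 lower (6.69%) of the 11 at an unadjusted p under 0.05. With array quality as a covariate 1 was higher (6.39% of all probe sets) and 0 lower (5.52%).

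The related bone-matrix genes gave no called member. Of 11 SIBLING and mineralisation genes, 0 had an unadjusted p under 0.05 and the median difference was 0.06. Those that neighbour Spp1 differed by 0.03 for Mepe, 0.18 for Ibsp, 0.13 for Dmp1, 0.06 for Dspp and 0.22 for Sparcl1, and Thoc2l on the other side by -0.29. Sparcl1 differed by 0.78 with array quality as a covariate (unadjusted p = 0.00132, limma adjusted p = 0.197) and Dspp by -0.15. Sparcl1 and Bglap (osteocalcin, -0.24) were the highest and lowest of the list. Sparc, the other matricellular gene deleted in this series, differed by 0.04 ± 0.16 (SE).

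Among 16 matricellular proteins, which sit in the matrix and tune adhesion rather than build it, 4 had a positive difference at an unadjusted p under 0.05 (9% of all probe sets), 1 a negative one (6.69%) and 0 passed adjustment. Tnc, tenascin C, read 7.33, 6.81, 6.51 and 6.97 in early wild-type and 6.73, 7.24, 7.43, 8.68 and 6.66 in early OPN-null mice. Late values were 7.14, 8.93 and 7.89 in OPN-null mice and 6.58 to 7.91 with a median of 6.81 in the wild type, so the groups overlapped. The Tnc difference was 0.74 ± 0.24 (SE; unadjusted p = 0.00521, limma adjusted p = 0.158), and 0.91 with array quality as a covariate. Thbs2 and Thbs1, thrombospondins that bind cell-surface receptors and growth factors, differed by 0.51 and 0.30, Ccn5 by 0.23, and Tnxb (tenascin X) by -0.19. In early TRAMP mice the OPN-null difference was -0.35 for Tnc and -0.41 for Thbs2, with limma adjusted p = 0.76 for each.

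The marker lists for cell types gave no called gene. In bulk tissue fewer cells of a type and less RNA per cell cannot be told apart. Of 22 luminal secretory genes 1, Wfdc15b, had an unadjusted p under 0.05 (6.69% of all probe sets were lower at that p), with a difference of -1.62. The list ran from Pate4, which is also on the seminal vesicle list below, at -1.87 to Msmb at 0.45 around a median of -0.08. Hoxb13, the homeobox gene of the prostate, read 6.46 to 7.77 in early wild-type and 7.04 to 8.17 in early OPN-null mice and differed by 0.04. Basal keratinocyte-type markers ran from Itga6 at -0.31 to Sfn at 0.25 (12 genes, median 0.01), and smooth muscle genes from Ppp1r12b at -0.12 to Tagln at 0.37 (13 genes, median 0.07). With array quality as a covariate the smooth muscle median was 0.33, and 5 of 13 members had a positive difference at an unadjusted p under 0.05 (6.39% of all probe sets). Epithelial adhesion genes ran from Epcam at -0.59 to Pkp3 at 0.15, with a median of -0.17 that was -0.02 with array quality as a covariate. Cldn3, a tight junction claudin, differed by -0.59 (unadjusted p = 0.000248, limma adjusted p = 0.0956), with 6.72, 7.11 and 6.17 in late OPN-null mice against 7.22 to 7.74 in late wild-type mice. Early Cldn3 values overlapped, at 6.94 to 7.69 in OPN-null and 7.46 to 7.81 in wild-type mice.

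None of the immune markers passed adjustment. Of 13 macrophage genes 3 had a positive difference at an unadjusted p under 0.05 (9% of all probe sets), and with array quality as a covariate 0 had. The lowest of the list was Mertk at -0.31 and the highest Mrc1, the mannose receptor, at 1.48. Mrc1 read 12.09 in O14 and 8.48 in O2 but 7.14 in O7, and it lay between 5.82 and 7.43 on the other 15 arrays. C1qc and Adgre1 differed by 0.37 and 0.28. Of 12 mast cell genes the highest difference was that of Mcpt1, a mucosal mast cell protease, at 0.44 ± 0.12 (SE; unadjusted p = 0.000948, limma adjusted p = 0.12). Mcpt1 read 4.21, 4.22, 4.12 and 4.14 in early wild-type and 5.10, 4.69, 4.79, 4.26 and 4.31 in early OPN-null mice, and its mean exceeded those of 34% of negative controls. Gata2, at -0.71, was the lowest of the mast cell list, of which 3 members were higher (9% of all probe sets) and 1 lower (6.69%) at an unadjusted p under 0.05.

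Secretory genes of the seminal vesicle, a neighbouring gland, varied widely between animals of the same genotype. Pate4 read 10.83, 11.52, 12.57 and 11.30 in early wild-type and 10.89, 8.61, 4.62, 4.89 and 11.14 in early OPN-null mice, and at the late age it spanned 5.23 to 11.97 in the wild type. Sva reached 12.23 in B11 and 9.17 in B3 and stayed at or below 5.40 in the other 16 mice. Svs1 was highest in the same B11 and B3, at 11.84 and 9.14, so the genes of this list are not independent. All 10 seminal vesicle genes had negative differences, from -1.87 for Pate4 to -0.87 for Spinkl. Of them 2 had an unadjusted p under 0.05 (6.69% of all probe sets were lower at that p). Over all 22206 probe sets 11384 had positive differences. All 12 skeletal muscle genes also had negative differences, with a median of -0.36 and 0 at an unadjusted p under 0.05. Myh4, a fast myosin, was the lowest of these at -0.61 and ranged from 4.33 to 11.37 among the 4 early wild-type mice alone. The part of neighbouring tissue in other differences was not tested beyond the fits with the seminal vesicle or smooth muscle score as a covariate.

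Genes of the endoplasmic reticulum chaperones differed widely from array to array. They belong to the unfolded protein response, in which unfolded protein in the secretory pathway activates ATF6, IRE1 and PERK and induces chaperones through an element called ERSE. Promoters were taken from RefSeq (GRCm38.p6, 250 bases before to 50 after each gene's start), and 13 of the 14 measured genes matched. The ERSE, CCAAT and CCACG with 9 bases between them, searched on both strands, were found in 6 of the 13 and in 39 of 32851 promoters overall (0.119%), and the shorter ERSE-II, ATTGG and CCACG with 1 base between them, in 1 of 13 and in 0.0365% of all. The stretches below are shown for the chaperone genes and the stress gene Herpud1 whose values follow, and capitals mark the element, read along the gene's strand (for Hsp90b1 and Creld2 it matches on the opposite strand).
Hspa5, chr2:34771985-34772083, plus strand: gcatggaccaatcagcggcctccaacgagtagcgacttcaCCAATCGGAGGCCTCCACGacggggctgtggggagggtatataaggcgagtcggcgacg
Dnajc3, chr14:118937787-118937885, plus strand: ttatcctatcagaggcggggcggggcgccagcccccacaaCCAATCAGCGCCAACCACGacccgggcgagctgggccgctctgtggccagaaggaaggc
Hsp90b1, chr10:86705493-86705591, minus strand: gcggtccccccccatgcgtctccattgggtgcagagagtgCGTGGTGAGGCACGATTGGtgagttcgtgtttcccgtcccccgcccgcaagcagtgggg
Creld2, chr15:88819480-88819578, plus strand: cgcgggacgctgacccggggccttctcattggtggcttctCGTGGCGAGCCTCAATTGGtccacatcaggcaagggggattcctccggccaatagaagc
Herpud1, chr8:94386337-94386427, plus strand: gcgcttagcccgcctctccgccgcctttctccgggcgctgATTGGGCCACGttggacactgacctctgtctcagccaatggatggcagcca

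Hspa5, the chaperone BiP of the endoplasmic reticulum, read 11.95, 12.05 and 11.68 in early OPN-null mice O8, O10 and O11 and 11.80 in late O7. It read 9.52 in O1, 10.50 in O9, 10.29 in O2 and 9.46 in O14. All 10 wild-type values lay between 7.55 and 11.21, so 4 OPN-null arrays stood above every wild-type array and 4 did not. The Hspa5 difference was 0.66 ± 0.40 (SE; unadjusted p = 0.108, limma adjusted p = 0.419). Hyou1, a partner of BiP, read 9.29, 9.31 and 8.96 in O8, O10 and O11 and 8.82 in O7, against 7.29 to 8.83 in the wild type. The mean level of the 14 genes, each centred on its mean over 67 arrays, was 0.76 to 1.15 in O7, O8, O10 and O11, -0.45 to -0.39 in O1 and O9, -0.62 in O2 and -1.20 in O14, and it ran from -1.32 in B6 to 0.56 in the wild type. The arrays of low chaperone level were those of low quality, O14, O2 and B6 among them. In SPARC-null mice without the transgene this 14-gene mean ran from -0.87 to 0.94 early and from 0.43 to 0.83 late. Group means there were 0.35 and 0.58, beside 0.37 and -0.34 in OPN-null and 0.05 and -0.15 in wild-type mice. High chaperone levels were thus not particular to OPN-null arrays.

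Without array quality as a covariate few members stood out. Of the 14 genes 0 had a positive and 1 (Xbp1, the transcription factor spliced by IRE1, -0.58) a negative difference at an unadjusted p under 0.05, and the median was 0.11. With array quality as a covariate the median was 0.52, and 8 of 14 had a positive difference at an unadjusted p under 0.05 (6.39% of all probe sets) and 0 a negative one (5.52%), though 0 passed adjustment in limma. In that fit Hspa5 differed by 1.18, Dnajc3 (an inhibitor of PERK) by 0.93, Creld2 by 0.86, Hsp90b1 by 0.80, Hyou1 by 0.75, Ddit3 (CHOP, the stress transcription factor) by 0.70 and Herpud1 (which helps degrade misfolded protein) by 0.55, and the lowest limma adjusted p among them was 0.072, for Hyou1. In early TRAMP mice, other animals, the OPN-null median for the list was 0.47 without and 0.38 with the covariate, with Creld2 at 1.13, Dnajc3 at 1.04 and Hspa5 at 0.85 (limma adjusted p = 0.76 each without it). Of the 14 genes 11 were higher and 0 lower there at an unadjusted p under 0.05, and 10 were higher with the covariate. Of all probe sets 2.23% were higher and 4.3% lower there at that p, and 2.41% higher with the covariate. Array quality in these early TRAMP mice was 0.739 ± 0.008 (SD, n = 6) in OPN-null mice and 0.726 ± 0.032 (n = 7) with intact OPN. The array of lowest quality among them, T10 with intact OPN (0.674), had a 14-gene mean of -1.24. In late TRAMP mice, with 3 OPN-null animals and 21.5% of all probe sets called, Hspa5 differed by -1.48.

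**Figure D3:**
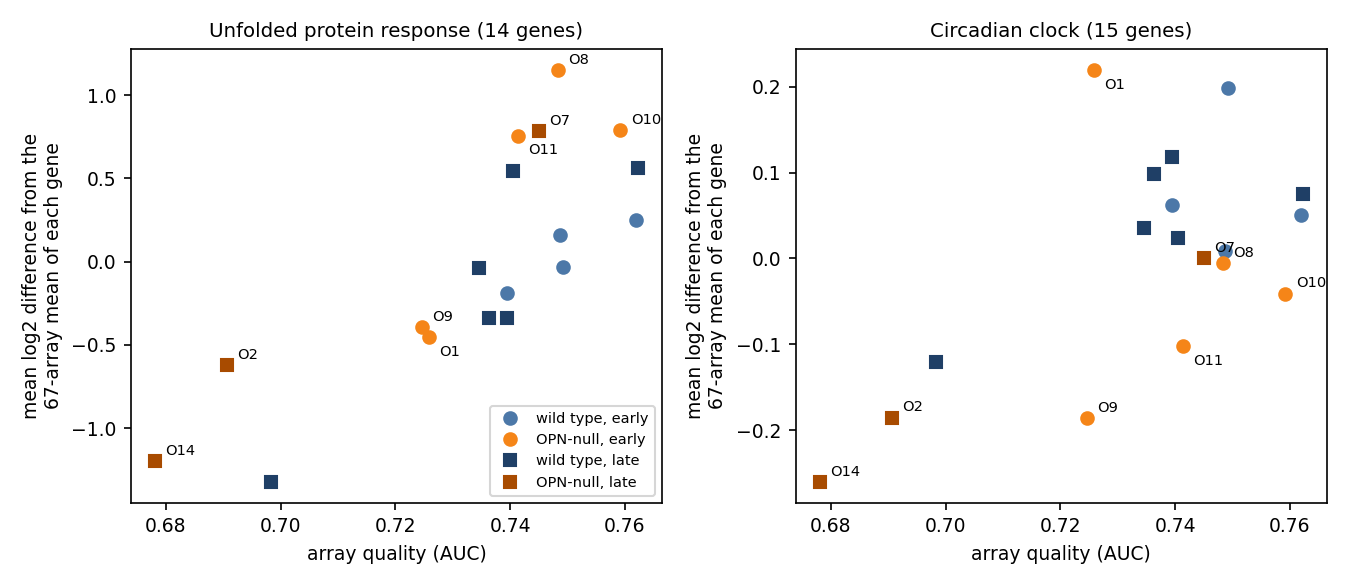
Mean level of 14 unfolded protein response genes (left) and of 15 clock genes (right) against array quality for the 18 arrays, as the mean log2 difference from each gene's mean over 67 arrays, with OPN-null arrays marked by code. On the left O7, O8, O10 and O11 lie above all wild-type arrays at 0.76 to 1.15 while O2 and O14 lie low on both axes, and on the right the genotypes overlap, from -0.26 in O14 to 0.22 in O1.

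The cytosolic heat shock genes, which answer to heat shock factor, were spread in a similar way. Of 9 genes 0 had an unadjusted p under 0.05 without the covariate, and the list ran from Hspa1b at -0.11 to Hsph1 at 0.26. With array quality as a covariate Hsp90aa1 (the inducible HSP90) differed by 0.93, Hsph1 (an HSP110 chaperone) by 0.71 and Hspb1 (a small heat shock protein) by 0.66, with unadjusted p under 0.05 for each and 0 called. Hsph1 read 9.01 in O7, 8.59 in O10 and 8.48 in O8 against 7.01 to 7.66 in the wild type, and 6.17 in O14 and 6.61 in O2. The mean level of the 9 genes, centred as above, averaged 0.19 in early and -0.17 in late OPN-null mice. It averaged 0.18 and 0.34 in SPARC-null mice without the transgene, and -0.13 and -0.0004 in the wild type. In early TRAMP mice the OPN-null difference of Hsph1 was 1.04 (limma adjusted p = 0.0255), the 1 called of 22206 there (0.0045%). That fit had no covariate, and the median of the 9 genes there was 0.23 without and 0.10 with array quality as a covariate.

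**Figure D4:**
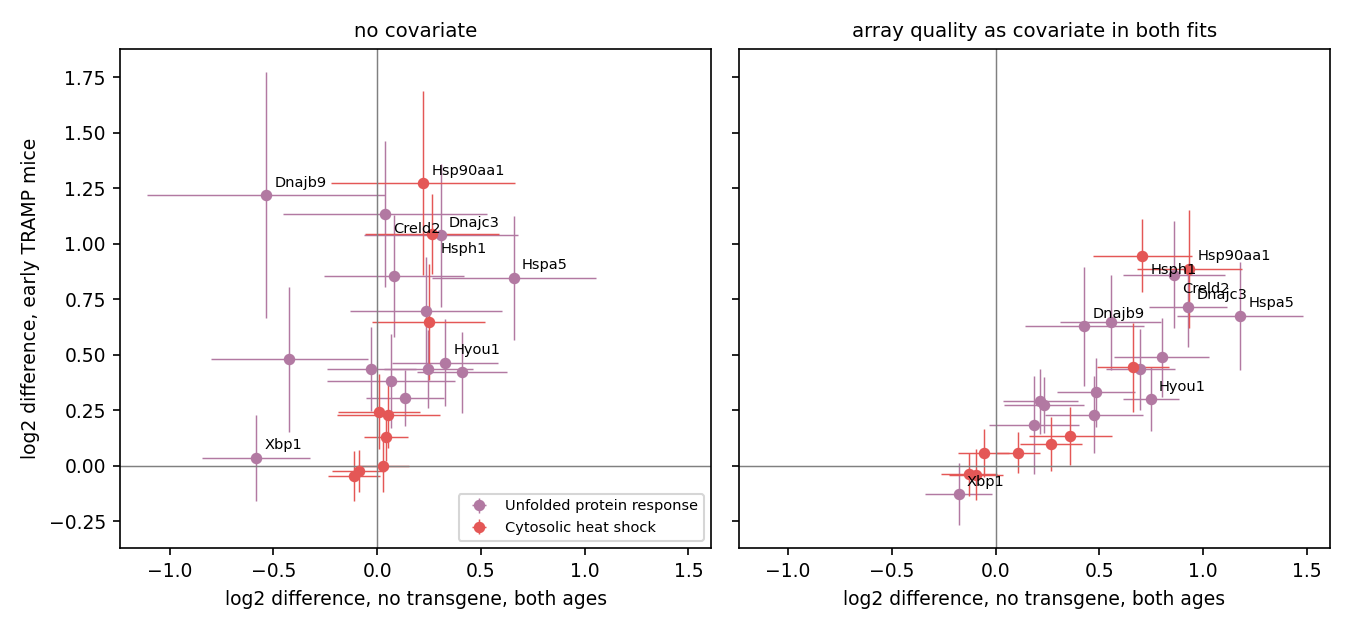
Log2 difference (OPN-null minus wild type) of 14 unfolded protein response and 9 heat shock genes without the transgene (x axis, both ages) and in early TRAMP mice (y axis), with bars of 1 SE, without (left) and with (right) array quality as a covariate in both fits. Hspa5 lies at 0.66 and 0.85 on the left and at 1.18 and 0.68 on the right, and Dnajb9 moves from -0.53 to 0.43 on the x axis.

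Several genes of the circadian clock had lower values in OPN-null prostate, though none passed adjustment. Of 15 clock genes 6 had a negative difference at an unadjusted p under 0.05 (6.69% of all probe sets) and 0 a positive one, with 6 and 0 when array quality was a covariate. They were Nr1d1 and Nr1d2 (the REV-ERB repressors), Dbp and Hlf (factors that bind D-box sites and oscillate with the clock), Per3 and Cry2 (of the repressor arm). Nr1d1 read 7.77, 7.67, 7.36 and 8.11 in early wild-type and 7.64, 7.32, 6.87, 7.49 and 7.21 in early OPN-null mice, and late values were 6.96 to 7.90 in the wild type and 6.70, 7.19 and 6.77 in OPN-null mice. Its difference of -0.50 ± 0.14 (SE; limma adjusted p = 0.123) was the lowest of the list. Hlf differed by -0.45 ± 0.11 (limma adjusted p = 0.114), Per3 by -0.45, Dbp by -0.43, Nr1d2 by -0.34 and Cry2 by -0.33. These 6 were singled out by their values on these arrays, so they were described one by one. The mean of all 15 clock genes, each centred on its mean over 67 arrays, was -0.19 to 0.22 in early and -0.26 to 0.0002 in late OPN-null mice and -0.12 to 0.20 over the wild type, so the groups overlapped. O1 had the highest value of the 18 at 0.22, and O14 the lowest. O1 was 16 weeks old like the early wild-type mice, and O8 to O11 were 17 weeks old. Of the core activators Arntl differed by 0.10 and Clock by -0.11, and Nfil3, the D-box repressor, was highest of the list at 0.22. In early TRAMP mice the OPN-null differences of the 6 ran from -0.18 for Nr1d1 to -0.02 for Dbp. The labels give no time of day for tissue collection, so its part was not tested.

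Immediate early genes, which respond within minutes to handling and growth signals, gave no called member. Of 15, 3 had a negative difference at an unadjusted p under 0.05 (6.69% of all probe sets): Dusp1, a MAP kinase phosphatase, at -0.65, Egr1 at -0.48 and Ier2 at -0.34. Dusp1 read 6.53, 6.01, 6.0 and 7.17 in early wild-type and 6.16, 5.26, 5.59, 6.01 and 5.07 in early OPN-null mice, and the groups overlapped. Ier3, at 0.07, was the highest of the list, and Fos differed by -0.04. The oxidative phosphorylation genes had a median of -0.33 with 6 of 16 negative at an unadjusted p under 0.05 (6.69% of all probe sets), from Ndufa1 at -1.59 to Atp5a1 at 0.04. Ndufa1, a small subunit of complex I, read 5.89 in O14 and 6.97 in O2 but 9.60 in O7. The median of the oxidative phosphorylation list was -0.04 with array quality as a covariate, and 0 of 16 had an unadjusted p under 0.05.

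**Figure D5:**
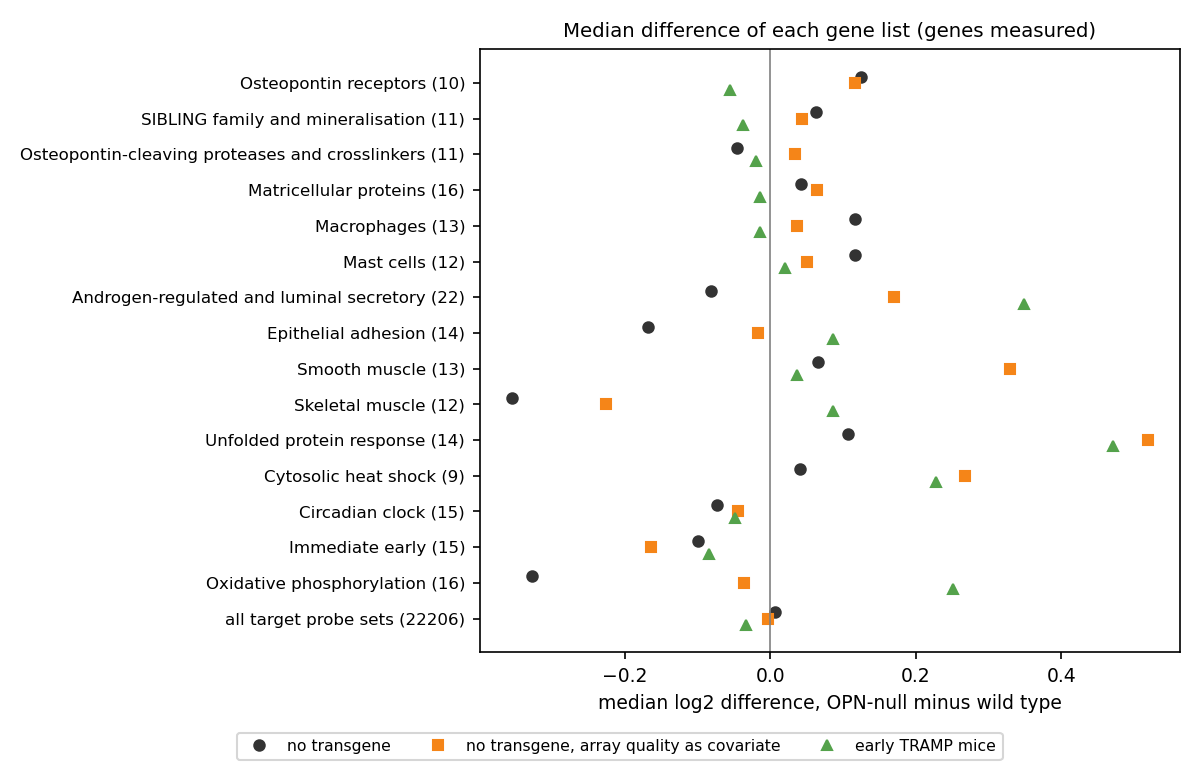
Median log2 difference (OPN-null minus wild type) of 15 gene lists and of all 22206 probe sets without the transgene (circles), with array quality as a covariate (squares) and in early TRAMP mice (triangles), with the number of genes measured in brackets. The unfolded protein response stands at 0.11, 0.52 and 0.47, and oxidative phosphorylation at -0.33, -0.04 and 0.25.

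No probe set passed the test of a difference between the ages. Early differences were 0.43 in the median for the unfolded protein response and late ones -0.08, and for oxidative phosphorylation -0.21 and -0.51. For the genotype difference between ages 0 probe sets were called in limma, and 683 (3.08%) had an unadjusted p under 0.05. Across the 22206 probe sets, which are not independent replicates, the OPN-null difference without the transgene correlated with that in early TRAMP mice at Pearson r = -0.26 without and 0.29 with array quality in both fits. Of the 200 probe sets of lowest p without the transgene, 90 had the same sign in early TRAMP mice without the covariate, and of the 200 of lowest p with it, 155 had. The share with the same sign over all probe sets is not given here. These counts are therefore not a result about the 200, and like the correlation they changed with the covariate. No animal is shared between these 2 comparisons.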

How the data were processed

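The values are log2 intensities that the authors deposited as 1 table, made with RMA and oligo, per the submitters' processing notes. Versions and the array's genome build: not given in the sources used here. RMA forces the arrays onto 1 distribution, so shifts shared by most genes are removed. Of 29129 probe sets, 6923 controls stayed out of the tests. GEO's platform annotation gave 1 symbol for 19572 of the other 22206, and these 19572 were matched by Entrez identifier to RefSeq (GRCm38.p6), which served for names and gene order. For genes with several probe sets the brightest was used.

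Groups come from the labels. limma 3.58.1 in R 4.3.3 fitted 1 mean per group to 29 arrays without the transgene, and the contrast averaged the early and late differences. The 11 SPARC-null arrays among them served the spread and the SPARC-null difference given for Armh3. Where array quality was a covariate, its slope was also fitted over all 29 arrays, SPARC-null ones included. P-values were adjusted by Benjamini-Hochberg over 22206 probe sets and called under 0.05. TRAMP arrays (38) were fitted apart. The fit was tested on simulated data. Genes were named by rule: called genes, the 10 of lowest p each way (fewer than 10 were called), each described list's extremes, Sparc, and genes within 10 places of Spp1, leaving out predicted or clone names. Any other gene was chosen after its values were seen. Members and lists were chosen with earlier results of these data known. Lists get counts and medians, with no test. Alternatives varied the arrays, covariates, weights, scaling, filter and moderation. The number of arrays limits precision.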

Additional observations from a re-analysis of the deposited data

Results flagged for a closer look

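In 66 checks of 1 group and measure each, 5 gave a sample far from the rest of its group, where chance flags about 1 in 20 groups. Armh3 was 6.69 in late wild-type B5, above the other 5 late wild-type mice (next highest 5.94). Aff1 was 7.37 in late wild-type B6, below the next value of 8.12. Reg3b was 6.60 in late wild-type B2, above 6.23. Vmn1r79 was 4.70 in early wild-type B8, above 4.56, and 5.76 in early OPN-null O9, above 4.97. The poly-A spike-in controls, which are not among the genes tested and enter only 1 alternative fit as a covariate, were 1.60 log2 units higher in OPN-null than in wild-type mice.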

How the results depend on the processing

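The number of arrays limits these results, and the count of probe sets called over both ages, 1 as reported, moved with most settings. It was 0 with the 18 arrays alone, without arrays of AUC under 0.7, with age in weeks, with the seminal vesicle score as a covariate or with each array centred on its median, and 0 with 2 settings chosen after seeing the data, the spike-in level as a covariate and the 18 arrays with array quality. It was 15 with the filter on dim probe sets, 20 with trend and robust moderation, 30 with a further quantile normalization, 416 with all 67 arrays, 426 with the smooth muscle score as a covariate and 2939 with array weights. For the late comparison it was 1 without arrays of AUC under 0.7, 13 with quantile normalization, 19 with the smooth muscle score, 199 with all 67 arrays and 2738 with array weights, and for the difference between ages 1 with array weights. Leaving out each array in turn gave 0 to 1593 calls over both ages, 0 to 1868 late and 0 to 12 for the difference between ages, with each highest count reached without O7. The early comparison called 0 in limma under every setting run. The array quality difference ran from -0.0304 to -0.0137 and passed an exact p of 0.05 without B6, B10, O7 or O10. Armh3 kept its direction in all 32 settings and lost its call in 18, with adjusted p from 0.00127 to 0.726. The other 19 genes of lowest p kept their direction wherever tested, in refits of the same arrays.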

Other observations

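The gene families and the chromosome below were chosen after the values of the OPN-null comparison over both ages were seen. Of 201 vomeronasal type 1 receptors, 75 had a positive difference at an unadjusted p under 0.05 (9% of all probe sets), 0 a negative one and 0 were called in limma, with a median of 0.19 that was 0.07 with array quality as a covariate. Of 1091 olfactory receptors 311 had a positive and 4 a negative difference at that p, with medians of 0.18 and 0.05. Their median log2 level was 4.35 for the vomeronasal type 1 and 4.77 for the olfactory receptors, below the median of 5.36 for the negative controls.

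Probe sets placed on chromosome Y held the largest share by chromosome: 142 of 219 (64.8%) had a positive difference at an unadjusted p under 0.05 (9% of all probe sets), 0 a negative one, and the lowest limma adjusted p was 0.114. Only 45 of the 219 have a symbol, and many belong to multicopy families whose copies share sequence, so they are not independent. Their mean level relative to 67 arrays was 1.49 in O2, 1.05 in O9 and 0.78 in O14 but -0.19 in O10 and -0.05 in O7, and -0.26 to 0.10 in the wild type. Over the 18 arrays this mean level correlated with array quality at r = -0.71. With array quality as a covariate 89 of 219 had a positive difference at an unadjusted p under 0.05 (6.39% of all probe sets). In early TRAMP mice their median OPN-null difference was -0.01. On a separate list of named Y-linked genes 7 were measured, and 0 had an unadjusted p under 0.05 (15.7% of all probe sets). The median difference of that list was 0.09 over both ages and -0.08 at the late age.

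Array O12, left out for its conflicting labels, read 5.15 for Armh3, 7.67 for Aff1 and 7.24 for Sparc.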
